A study of Mus musculus with 8 samples.

Results

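The nuclear-encoded subunits of the mitochondrial respiratory chain were followed in mouse liver with and without Bcl6, a transcriptional repressor with a zinc-finger DNA-binding domain. The members were every nuclear protein-coding gene whose symbol starts with Ndufa, Ndufb, Ndufc, Ndufs, Ndufv, Uqcr, Cox4, Cox5, Cox6, Cox7, Cox8 or Atp5, together with Sdha, Sdhb, Sdhc, Sdhd, Cyc1 and Cycs, without Cox8b and the Ndufaf assembly factors. Probes were assigned to genes through their RefSeq accession, which gave 85 genes on 106 of the 56605 probes. RNA signal was well above background for 84 of them (104 probes), and these 84 were tested among 26553 rows, each 1 gene or 1 unnamed transcript. The remaining member, Cox8c, a testis isoform of a cytochrome c oxidase subunit, was not well above background on any array. The same rule applied to the RefSeq gene table named 89 genes. The 4 others (Cox5b, Ndufb1, Ndufb4b and Ndufb4c) had no probe matched by accession and were not analysed here.

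Whole-liver RNA of mice aged 10 to 11 weeks was hybridised to 1-colour (Cy3) Agilent arrays, 1 array per sample and 2 arrays per group. The groups were males labelled as liver-specific Bcl6 knockouts, wild-type males, females labelled as liver-specific Bcl6 knockouts and wild-type females. The labels give neither the promoter that drove the deletion nor the strain, and they do not say whether the 2 arrays of a group came from separate animals, so p-values measure the spread between these arrays, which may be in part technical. Values are log2 signals relative to the 75th percentile of each array, so a probe at 0 is as bright as that percentile. Differences were tested with limma across all 26553 rows, with Benjamini-Hochberg adjustment, and the threshold is an adjusted p of 0.05.

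The respiratory chain passes electrons taken from NADH by complex I and from succinate by complex II through ubiquinone to complex III, then by cytochrome c to complex IV, where oxygen is reduced. Complexes I, III and IV pump protons across the inner mitochondrial membrane, and complex V, the ATP synthase, lets them back and makes ATP. Hepatocytes are rich in mitochondria and use the chain for gluconeogenesis, urea synthesis and fatty acid oxidation. Several subunits of complex IV exist as tissue isoforms, of which liver mainly uses the widely expressed forms.

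All 8 arrays lay on 1 slide and were read in 1 scan, with females in the first row of the slide and males in the second, so slide row cannot be told apart from sex. Between 33677 and 36459 spots per array were well above background out of 59305 spots other than controls, no spot was saturated, and replicate arrays correlated at 0.987 to 0.993 over all rows. Xist, Ddx3y and Eif2s3y separated the arrays by labelled sex without overlap. All 15 hepatocyte markers examined were well above background on all 8 arrays. The only probe for Bcl6 was not lower on the arrays labelled knockout, with values of 4.0 and 3.51 on male knockout arrays against 3.46 and 2.40 on male wild-type arrays, and 1.13 and 3.93 on female knockout arrays against 2.46 and 0.37 on female wild-type arrays. The differences were 0.83 ± 1.06 in males (SE, n = 2 each, limma adjusted p = 0.670) and 1.11 ± 1.06 in females (limma adjusted p = 0.555). The labels and files do not place that probe relative to the deleted part, so it does not check the labels, and each direction below is that of arrays labelled knockout.

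The female wild-type arrays stood apart from each other in these genes. Relative to each subunit's own mean over the 8 arrays, the medians of the 84 subunits were −0.02 and −0.14 on male arrays labelled knockout, against 0.07 and 0.13 on male wild-type arrays. In females they were −0.04 and −0.06 on arrays labelled knockout, against 0.16 on wild-type array 1 and −0.09 on wild-type array 2. Of the 84 subunits, 76 lay above their own mean on female wild-type array 1 and 17 on female wild-type array 2. Thus the male groups did not overlap in this median, whereas the female arrays labelled knockout lay between the female wild-type arrays. Over all 26553 rows the same medians stayed between −0.02 and 0.01.

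**Figure D1:**
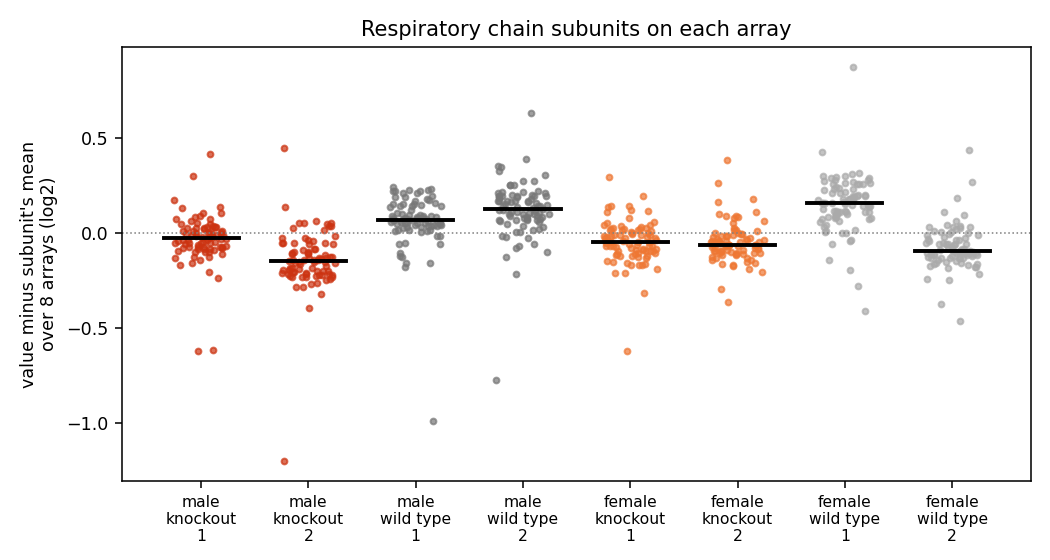
Each point is 1 of the 84 subunits on 1 array, plotted as its log2 value minus that subunit's mean over the 8 arrays (y axis); the x axis gives the array by group and replicate, and black bars are medians. Male arrays labelled knockout sit at −0.02 and −0.14 and male wild-type arrays at 0.07 and 0.13, while the female arrays labelled knockout, at −0.04 and −0.06, lie between the female wild-type arrays at 0.16 and −0.09.

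The calls described below fell on 4 of 84 subunits in males, against 10.6% of all rows past the threshold. The promoters of these 4 genes are shown: Cox7a1, Cox7a2 and Cox7a2l of complex IV, and Cycs, the somatic cytochrome c. Of the 85 genes, 68 had a promoter in the RefSeq table (GRCm38.p6), which holds 250 bases before and 50 bases after the gene start, and the 250 bases before the start are printed 5′ to 3′ on the strand of the gene. Capitals mark matches to the motif letters given after the sequences. The intervals are chr7:30183921-30184170 (plus strand) for Cox7a1, chr9:79759854-79760103 (minus strand) for Cox7a2, chr17:83514334-83514583 (minus strand) for Cox7a2l and chr6:50566570-50566819 (minus strand) for Cycs.
Cox7a1: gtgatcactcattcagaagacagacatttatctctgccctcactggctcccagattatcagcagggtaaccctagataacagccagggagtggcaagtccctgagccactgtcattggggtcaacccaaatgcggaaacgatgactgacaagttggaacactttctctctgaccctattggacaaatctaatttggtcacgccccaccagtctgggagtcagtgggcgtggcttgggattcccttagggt
Cox7a2: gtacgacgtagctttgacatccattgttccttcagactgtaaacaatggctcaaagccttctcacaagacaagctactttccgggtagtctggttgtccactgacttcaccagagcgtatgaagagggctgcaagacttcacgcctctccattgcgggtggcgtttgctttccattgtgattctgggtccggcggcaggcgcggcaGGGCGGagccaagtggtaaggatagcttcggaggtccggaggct
Cox7a2l: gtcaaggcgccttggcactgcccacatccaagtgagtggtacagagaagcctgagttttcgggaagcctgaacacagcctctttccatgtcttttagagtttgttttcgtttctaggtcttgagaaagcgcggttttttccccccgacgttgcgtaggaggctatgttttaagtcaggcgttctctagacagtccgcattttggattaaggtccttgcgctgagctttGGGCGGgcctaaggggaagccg
Cycs: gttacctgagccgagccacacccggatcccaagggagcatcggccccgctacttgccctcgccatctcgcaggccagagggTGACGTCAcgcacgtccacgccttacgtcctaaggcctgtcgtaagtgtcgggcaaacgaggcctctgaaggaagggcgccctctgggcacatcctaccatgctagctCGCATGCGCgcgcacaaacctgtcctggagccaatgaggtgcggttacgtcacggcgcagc
Cycs carried the NRF1 letters CGCATGCGC, starting 61 bases before the gene start, and the CREB letters TGACGTCA, starting 169 bases before it. The SP1 letters GGGCGG started 44 bases before the gene start in Cox7a2 and 22 bases before it in Cox7a2l. In the 50 bases after the start, which are not printed, SP1 letters were also found in Cycs and again in Cox7a2l. No searched motif was found in the Cox7a1 window, which had a GC content of 51.2%, against 64% in the Cycs window.

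Among the 68 subunit promoters, several motifs of known regulators of mitochondrial genes were more frequent than among the promoters of all 27025 genes in the table, both strands being searched over the full window. The NRF1 letters CGCATGCGC were found in 9 of 68 promoters (13.2%), against 1.95% of all genes, among them Cycs, Uqcrc1, Uqcr11 and Cox6a1. The YY1 letters AAGATGGCG were found in 7 (10.3%), against 1.64% of all genes, and the GABPA letters CCGGAAG in 17 (25%), against 9.93%. The ERRA letters TCAAGGTCA occurred in 2 promoters (2.94%), those of Sdhd and Atp5g3, against 0.466% of all genes. CREB letters were found in 5 (7.35%), against 2.03%, and SP1 letters in 30 (44.1%), against 38.2%. The BCL6 letters TTCCTAGAA were found in 0 of the 68 promoters, against 0.474% of all genes, and the looser form TTCCTNGAA, which contains them, in 1 (1.47%, Ndufa8), against 1.86%. The STAT letters TTCNNNGAA, which contain both BCL6 forms, were found in 5 (7.35%), against 9.55%. The letters were chosen with these promoters in view, and a match describes the letters only.

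In males, most subunits had a lower value on the arrays labelled knockout than on wild-type arrays, by a small and similar amount, and few passed the test. The difference was below 0 for 72 of 84 subunits, against 51.9% of all rows, and its median was −0.17 on the log2 scale, or 11.4% lower, against a median of −0.01 over all rows. Of the 84 differences, 81 lay within 0.5 of 0 in either direction. For 59 of 84 subunits both knockout arrays were below both wild-type arrays (32.2% of all rows), and for 5 of 84 both were above (29.3% of all rows). Past the threshold were 4 of 84 subunits (4.76%), against 10.6% of all rows, and all 4 were lower, the direction taken by 4.52% of all rows. At an unadjusted p under 0.05 there were 17 of 84, against 27% of all rows. The share of calls thus lay near or below that of all rows, while the share below 0 lay above it. Whole liver was sampled, so fewer cells of a type and less RNA per cell cannot be told apart. The median stayed between −0.24 and −0.12 in every alternative tried, and between 67 and 75 of 84 subunits were below 0 with each of the 4 male arrays left out in turn. The count of calls was less stable. It was 11 (10 lower and 1 higher) after normexp background correction, and 0 with no filter on dim probes, with the male arrays fitted alone or without either male knockout array, without male wild-type array 1, or without either female knockout array. Without male wild-type array 2 it was 1, Sdha, which was higher.

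In females the difference was below 0 for 64 of 84 subunits, against 49.3% of all rows, with a median of −0.11, or 7.26% lower, against 0.01 over all rows. Both knockout arrays were below both wild-type arrays for 25 of 84 subunits (27% of all rows) and above both for 10 (28.5% of all rows). No subunit passed the threshold with limma, against 5.88% of all rows, and 8 of 84 had an unadjusted p under 0.05, against 24.8% of all rows. After normexp correction limma called 7 subunits in females, 6 lower (Cycs, Cox7a2, Ndufa4, Ndufab1, Ndufs7 and Atp5mpl) and 1 higher (Uqcr11). The direction in females rested on 1 array. Without female wild-type array 1 the median was 0.035 and 35 of 84 subunits were below 0, whereas without female wild-type array 2 the median was −0.23 and 73 of 84 were below 0.

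**Figure D2:**
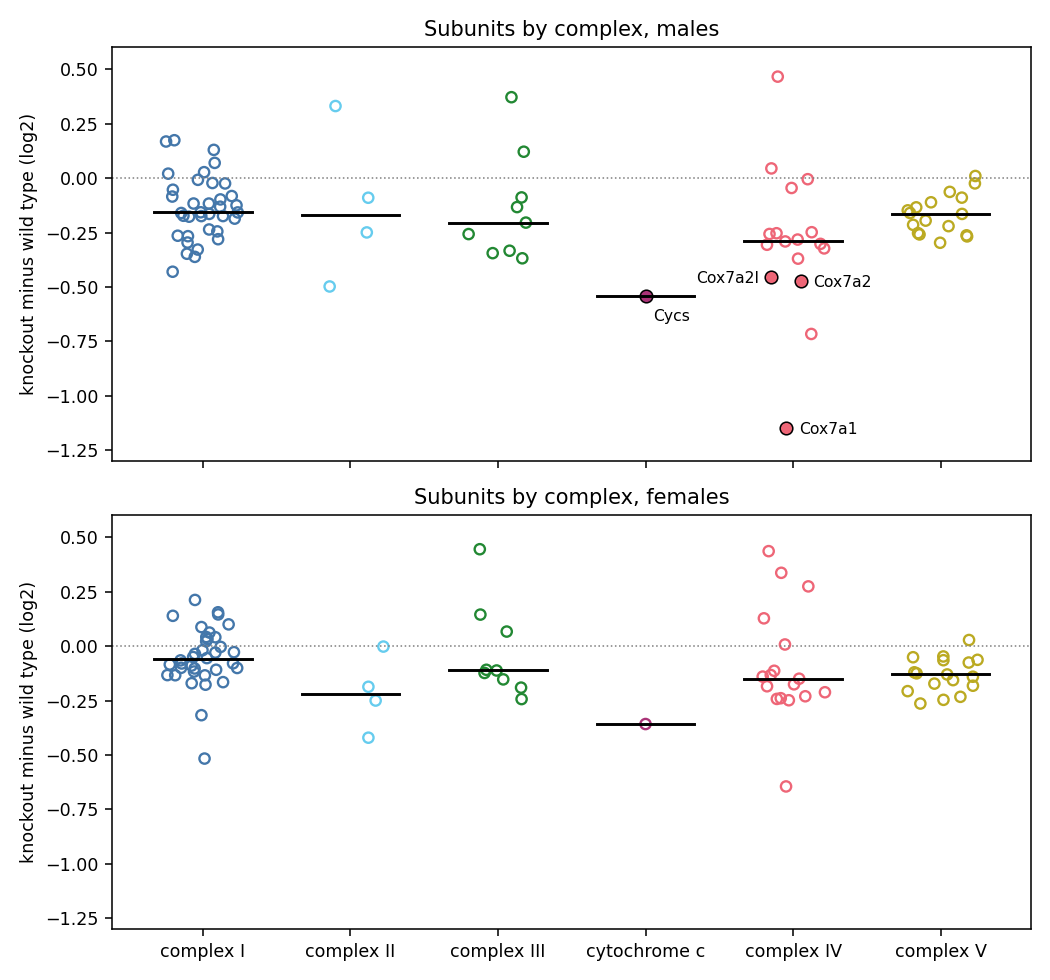
Each circle is 1 subunit, placed by complex on the x axis, and the y axis is its log2 difference, knockout minus wild type, in males (upper panel) and females (lower panel); bars are medians per complex and filled, named circles are past the threshold. In males the medians lie between −0.16 for complexes I and V and −0.54 for cytochrome c, and the 4 called subunits belong to complex IV and cytochrome c.

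The direction was set beside that of rows of similar brightness. Probe brightness is a property of the probe as well as of its transcript, and the subunit probes were bright, with a median value of 6.29, above 97.2% of rows. Among rows with a mean value between 4 and 9, the 73 subunits had a median difference of −0.17 in males, with 63 below 0. The 2321 other rows in that range had a median of −0.03, 55.5% below 0 and 13% past the threshold. In females the 73 subunits had a median of −0.11, with 59 below 0, against 0.01 and 48.9% below 0 for the other rows in the range. Where a gene had several probes that passed the filter (18 genes), the probes gave opposite signs for 3 genes in males and 4 in females, and the median gap between them was 0.0651 in males and 0.0475 in females.

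**Figure D3:**
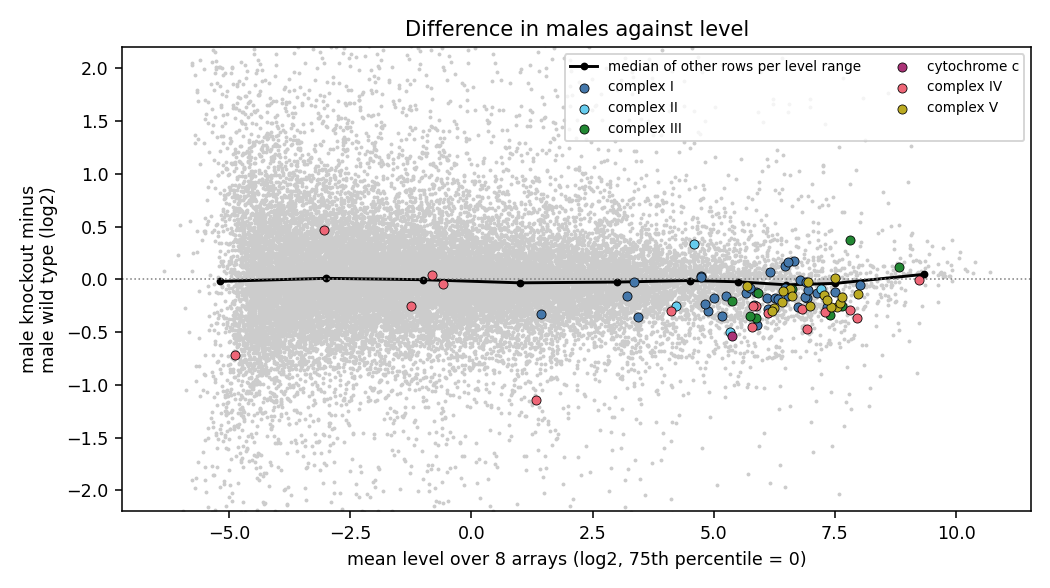
Each grey point is 1 of the 26553 rows, with its mean log2 value over 8 arrays on the x axis and its log2 difference in males, knockout minus wild type, on the y axis; coloured points are the 84 subunits and the black line joins the medians of the other rows per level range. The y axis ends at 2.2 in either direction, and 583 rows lie beyond it. Most subunits lie to the right, below the black line.

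Complex I takes electrons from NADH and is the largest member of the chain, with 36 subunits tested. In males 30 of 36 were below 0, with a median difference of −0.16, and none passed the threshold. In females 25 of 36 were below 0, with a median of −0.06. Ndufs7, which carries the iron-sulphur cluster nearest to ubiquinone, had values of 5.73 and 5.63 on male knockout arrays, against 6.11 and 6.10 on male wild-type arrays. Its difference was −0.43 ± 0.11 (SE, n = 2 each, limma adjusted p = 0.0656), the largest in complex I in males. In females Ndufs7 measured 5.74 and 5.72 on knockout arrays against 6.15 and 5.93 on wild-type arrays, and the groups did not overlap in either sex. Ndufab1, the mitochondrial acyl carrier protein that is also a complex I subunit, had the largest negative difference in females, with values of 1.22 and 1.14 on knockout arrays against 1.69 and 1.70 on wild-type arrays. That difference was −0.52 ± 0.11 (SE, n = 2 each, limma adjusted p = 0.0546). In males Ndufab1 measured 1.38 and 1.15 on knockout arrays, against 1.58 and 1.60 on wild-type arrays, so it too did not overlap in either sex. The largest positive differences were those of 2 accessory subunits, 0.17 for Ndufa7 in males (95% interval −0.10 to 0.45) and 0.21 for Ndufb7 in females (−0.14 to 0.56).

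Complex II, succinate dehydrogenase, is shared with the citric acid cycle, and all 4 of its subunits are encoded in the nucleus. Its medians were −0.17 in males and −0.22 in females. Sdhd, one of the pair of membrane anchors, had values of 5.14 and 4.95 on male knockout arrays against 5.53 and 5.55 on male wild-type arrays, and 5.18 and 5.19 on female knockout arrays against 5.78 and 5.44 on female wild-type arrays. The differences were −0.50 ± 0.14 in males (SE, n = 2 each, limma adjusted p = 0.0808) and −0.42 ± 0.14 in females (limma adjusted p = 0.139), without overlap in either sex. Sdhc, the other anchor, differed by −0.25 in both sexes, with 95% intervals of −0.58 to 0.08 in males and in females alike. Sdhb, the iron-sulphur subunit, differed by −0.09 in males (−0.50 to 0.32) and −0.00 in females (−0.42 to 0.41). Sdha, the flavoprotein subunit, had values of 4.67 and 4.54 on male knockout arrays against 3.61 and 4.95 on male wild-type arrays. Its difference of 0.33 ± 0.40 in males turned on the wild-type array kept. Without the one at 3.61 it was −0.34 (limma adjusted p = 0.246), and without the one at 4.95 it was 1.0 (limma adjusted p = 0.0338), where the lone wild-type array is assumed to vary like the other groups. The second Sdha probe gave −0.29 in males, and in females Sdha measured 4.74 and 4.58 on knockout arrays against 4.91 and 4.79 on wild-type arrays.

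Complex III hands electrons to cytochrome c, and 9 of its subunits were tested. In males 7 of 9 were below 0 with a median of −0.20, and in females 6 of 9 with a median of −0.11. Cyc1, the cytochrome c1 haem subunit, had values of 5.74 and 5.63 on male knockout arrays against 6.01 and 6.09 on male wild-type arrays, a difference of −0.37 ± 0.15 (SE, n = 2 each, limma adjusted p = 0.187). Uqcr10, a small accessory subunit, had the largest negative difference in females, −0.24 ± 0.13 (limma adjusted p = 0.317). Uqcr11, also a small accessory subunit, was an exception to the common direction in both sexes. It measured 8.11 and 7.95 on male knockout arrays against 7.64 and 7.69 on male wild-type arrays, and 8.01 and 7.99 on female knockout arrays against 7.67 and 7.44 on female wild-type arrays. Its differences were 0.37 ± 0.12 in males (SE, n = 2 each, limma adjusted p = 0.113) against wild type, and 0.44 ± 0.12 in females (limma adjusted p = 0.0904), and within each sex both knockout arrays lay above both wild-type arrays. After quantile normalization or normexp correction, Uqcr11 passed the threshold in both sexes.

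Cytochrome c, the mobile carrier between complexes III and IV, is encoded in somatic cells by Cycs. Cycs had values of 5.20 and 5.05 on male knockout arrays, against 5.60 and 5.73 on male wild-type arrays. In females it measured 5.06 and 5.28 on knockout arrays, against 5.56 and 5.48 on wild-type arrays, so that all 4 knockout values lay below all 4 wild-type values. Cycs fell in males by 0.54 ± 0.12 on the log2 scale (SE, n = 2 each, limma adjusted p = 0.0458), which is 1.45-fold lower. The female difference was −0.36 ± 0.12 (limma adjusted p = 0.146). The second Cycs probe gave −0.80 in males (limma adjusted p = 0.0120, fitted over probes) and −0.52 in females (limma adjusted p = 0.0587). The male call was lost in all 8 fits that left out 1 array, with adjusted p between 0.0586 and 0.219.

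Complex IV, cytochrome c oxidase, reduces oxygen, and its 17 tested members had the lowest median of the multi-subunit complexes in males, −0.29, with 15 of 17 below 0. The female median was −0.15, with 12 of 17 below 0. The 3 called members all belong to the subunit 7a family. Cox7a1, the isoform known from heart and skeletal muscle, had values of 0.73 and 0.14 on male knockout arrays against 1.43 and 1.73 on male wild-type arrays, and 1.47 and 1.24 on female knockout arrays against 2.22 and 1.78 on female wild-type arrays. The male arrays labelled knockout were the lowest pair, and the groups did not overlap within either sex. Cox7a1 fell in males by 1.15 ± 0.25 on the log2 scale (SE, n = 2 each, limma adjusted p = 0.0412), which is 2.21-fold lower. Its female difference was −0.64 ± 0.25 (limma adjusted p = 0.186), and the male and female differences were not distinguishable (−0.50 between them, limma adjusted p = 0.776).

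Cox7a2, the isoform used in liver and most other tissues, had values of 6.78 and 6.63 on male knockout arrays against 7.14 and 7.22 on male wild-type arrays, and 6.76 and 6.78 on female knockout arrays against 7.06 and 6.94 on female wild-type arrays. It fell in males by 0.47 ± 0.11 on the log2 scale (limma adjusted p = 0.0433), or 1.39-fold, with a female difference of −0.23 ± 0.11 (limma adjusted p = 0.243). Cox7a2l, a relative that joins complex III and complex IV into supercomplexes, had values of 5.55 and 5.63 on male knockout arrays against 6.03 and 6.06 on male wild-type arrays, and 5.68 and 5.58 on female knockout arrays against 5.92 and 5.82 on female wild-type arrays. It fell in males by 0.46 ± 0.10 on the log2 scale (limma adjusted p = 0.0401), or 1.37-fold, with a female difference of −0.24 ± 0.10 (limma adjusted p = 0.206). For both genes, all 4 knockout values lay below all 4 wild-type values. Each of the 3 family members kept its male call without female wild-type array 1 or without female wild-type array 2, and lost it without any 1 of the other 6 arrays, with a highest adjusted p of 0.171 for Cox7a1, 0.218 for Cox7a2 and 0.197 for Cox7a2l.

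**Figure D4:**
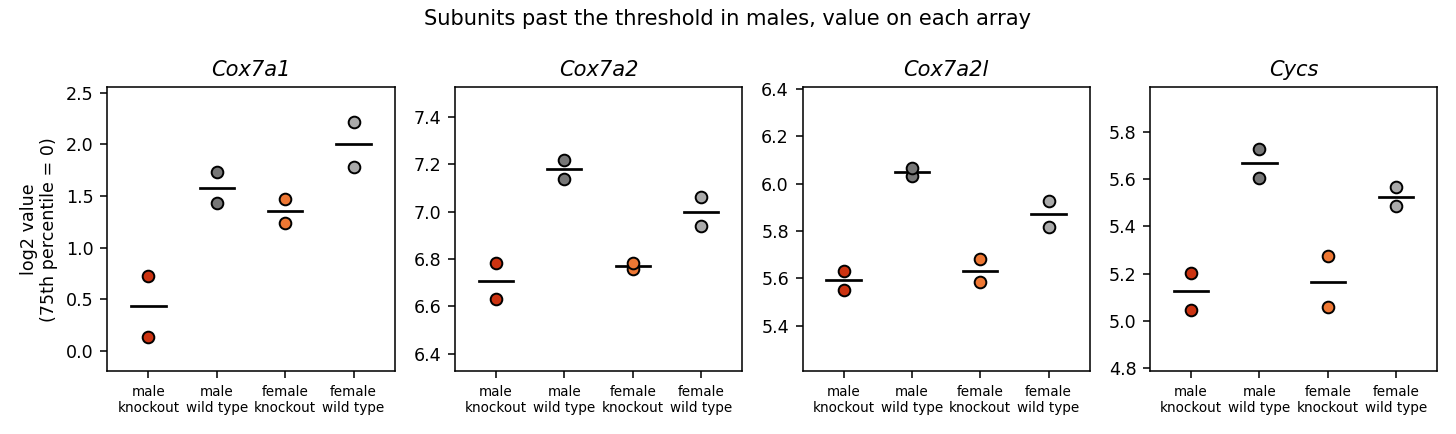
Log2 value on each array (y axis, 75th percentile of the array at 0) for the 4 subunits past the threshold in males, by group on the x axis; points are arrays and bars are group means of 2 arrays. Within each sex the arrays labelled knockout lie below the wild-type arrays for all 4 genes, with Cox7a1 at 0.73 and 0.14 on male knockout arrays against 1.43 and 1.73 on male wild-type arrays.

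The other isoform groups of complex IV did not pass the threshold in either sex. Cox4i1, the common isoform of subunit 4, differed by −0.29 in males (95% interval −0.56 to −0.02) and −0.15 in females (−0.42 to 0.12), and Cox4i2, the isoform known from lung, by −0.05 (−0.31 to 0.22) and 0.13 (−0.14 to 0.39). Cox6a1, the liver form of subunit 6a, differed by −0.01 in males (−0.26 to 0.25) and 0.01 in females (−0.25 to 0.26), the closest to no difference among the complex IV isoforms. Cox6a2, its heart and muscle counterpart, differed by 0.47 in males (−0.31 to 1.24) and 0.27 in females (−0.50 to 1.05). Cox6b1 differed by −0.30 in males (−0.66 to 0.06) and −0.14 in females (−0.50 to 0.22). Cox6b2, the testis counterpart, had values of −1.39 and −1.21 on male knockout arrays against −1.04 and −1.05 on male wild-type arrays, and −1.13 and −1.08 on female knockout arrays against −1.66 and −1.43 on female wild-type arrays. Thus Cox6b2 lay lower on knockout arrays in males and higher in females without overlap in either, but the difference between the sexes, −0.69, did not pass the threshold (limma adjusted p = 0.366). Cox7b differed by −0.26 in males (−0.60 to 0.09) and −0.13 in females (−0.48 to 0.21). Cox7b2, a testis form, was well above background on 0 male knockout arrays, 2 male wild-type arrays, 1 female knockout array and 1 female wild-type array, so in males only a bound can be given, with means of −5.16 on knockout arrays against −4.45 on wild-type arrays, at least 1.61-fold higher in wild type. It entered the fit through the male wild-type arrays alone, and no test of it is given. Cox8a, the common isoform of subunit 8, differed by −0.37 ± 0.12 in males (limma adjusted p = 0.120), with a difference of −0.18 in females. Ndufa4, once assigned to complex I and now counted with complex IV, differed by −0.32 ± 0.10 in males (limma adjusted p = 0.0922), with −0.24 in females, and its hypoxia-responsive relative Ndufa4l2 by 0.04 (−0.57 to 0.66) and 0.34 (−0.28 to 0.95).

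Cox8b, the heart and muscle isoform of subunit 8, is outside the rule but is set beside the family because it was higher on knockout arrays in both sexes, a choice made after its values were seen, so its values are a description with no test. Cox8b had values of 1.07 and −0.61 on male knockout arrays against −6.08 and −4.70 on male wild-type arrays, and 0.39 and 2.30 on female knockout arrays against −5.82 and −6.37 on female wild-type arrays. No wild-type array had it well above background, so only a bound can be given: at least 35.8-fold higher in males, and at least 102-fold higher in females. The bound sets the mean of the knockout arrays against the mean, over wild-type arrays, of the higher of the probe's own value and the dimmest probe well above background.

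Complex V, the ATP synthase, had differences of similar size throughout. In males 16 of 17 subunits were below 0, with a median of −0.16 and a range of −0.30 to 0.01, and for 15 of 17 both knockout arrays lay below both wild-type arrays, against 32.2% of all rows. In females 16 of 17 were below 0, with a median of −0.13, and for 5 of 17 both knockout arrays lay below both wild-type arrays, against 27% of all rows. Atp5pb, the peripheral stalk subunit b, had the largest male difference, with values of 6.10 and 5.97 on knockout arrays against 6.28 and 6.40 on wild-type arrays (−0.30 ± 0.13, SE, n = 2 each, limma adjusted p = 0.215). Atp5a1, the catalytic-domain subunit alpha, had the largest female difference, −0.26 ± 0.13 (limma adjusted p = 0.266), and the same size of difference in males. Atp5g1, Atp5g2 and Atp5g3 encode the same mature subunit c behind different import sequences. Their male differences were 0.01 (95% interval −0.34 to 0.36), −0.09 (−0.35 to 0.17) and −0.16 (−0.44 to 0.11), and their female differences were −0.16 (−0.51 to 0.19), 0.03 (−0.23 to 0.29) and −0.06 (−0.34 to 0.21).

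Across the sexes, 61 of 84 subunits (72.6%) were below 0 in both, against 36.7% of all rows, and 9 (10.7%) were above 0 in both, against 35.5%. The 2 comparisons share no array. Of the 61, 55 had the larger fall in value in males. Without female wild-type array 1, 33 of 84 were below 0 in both, against 34.9% of all rows, and 32 of those had the larger fall in males. Without female wild-type array 2, 66 were below 0 in both and 24 of those had the larger fall in males. Without any 1 of the other 6 arrays, 58 to 62 were below 0 in both, and 38 to 59 of those had the larger fall in males. Also, the direct test of the difference between the sexes called 0 of 84 subunits with limma, against 0.196% of all rows (52 rows, and 0 to 121 with arrays left out), with 1 at an unadjusted p under 0.05, against 8.41% of all rows. The median of that difference was −0.09, which was −0.22 without female wild-type array 1 and 0.043 without female wild-type array 2. Males set against females gave 0 calls of 84 in wild type, against 0.911% of all rows, with 2 subunits at an unadjusted p under 0.05 (17.5% of all rows) and a median of 0.07. That wild-type median was 0.18 without female wild-type array 1 and −0.046 without female wild-type array 2. Among arrays labelled knockout, males against females gave 0 calls of 84, against 0.0791% of all rows, 1 at an unadjusted p under 0.05 (5.98% of all rows) and a median of −0.04. For a subunit of median precision the 95% interval of a difference reached 0.299 to either side on the log2 scale, so a shift of the size of these medians in a single subunit was not detectable with 2 arrays per group.

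Genes of 5 other mitochondrial groups were set beside the subunits. Of all rows, 6.09% rose and 4.52% fell in males, and 3.49% rose and 2.39% fell in females. The difference was below 0 for 51.9% of all rows in males and 49.3% in females. Genes that help build the complexes were split in direction, with 24 of 46 below 0 in males and 19 of 46 in females. Of these 46 assembly factors tested, 3 rose and 2 fell in males, with a median difference of −0.01, and 2 rose and 0 fell in females, with a median of 0.06. Acad9, an acyl-CoA dehydrogenase that also serves as a complex I assembly factor, had values of 3.64 and 3.57 on male knockout arrays against 2.28 and 2.30 on male wild-type arrays, and 3.58 and 3.61 on female knockout arrays against 2.34 and 2.32 on female wild-type arrays. Acad9 rose 2.49-fold in males (limma adjusted p = 0.000878) and 2.41-fold in females (limma adjusted p = 0.00165), with non-overlapping groups, and kept both calls in all 8 fits that left out 1 array. Uqcc2, which helps assemble complex III, rose 1.70-fold in males (limma adjusted p = 0.0191) and 1.57-fold in females (limma adjusted p = 0.0428). Lrpprc, which stabilises mitochondrial messenger RNAs, fell in males by 0.58 on the log2 scale (limma adjusted p = 0.0272), and Coa7, a complex IV assembly factor, rose by 0.63 (limma adjusted p = 0.0432). The second gene that fell in males was Ndufaf4, a complex I assembly factor (limma adjusted p = 0.0460), and the dependence of that call on single arrays is not given here. The Uqcc2, Lrpprc and Coa7 calls in males were each lost without any 1 of the 4 male arrays, and the female Uqcc2 call without any 1 of the 8 arrays. The Coa7 call was also lost without either female wild-type array. The Lrpprc call was also lost when the probes of a gene were averaged.

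Of 24 genes of mitochondrial transcription and translation, 1 rose and 1 fell in males and 0 rose and 1 fell in females. Of these 24, 16 were below 0 in males (median −0.07) and 12 in females (median 0.01). Mterf3, a repressor of mitochondrial transcription, fell by 0.52 on the log2 scale in males (limma adjusted p = 0.0369) and by 0.56 in females (limma adjusted p = 0.0413), and Mtif3, an initiation factor, rose by 0.50 in males (limma adjusted p = 0.0427). Of 28 regulators of mitochondrial biogenesis, 1 rose and 2 fell in males (median −0.21), and 0 rose and 3 fell in females (median −0.20). Of these 28, 21 were below 0 in males and 19 in females. Ppargc1b, a coactivator of nuclear receptors that drives respiratory chain genes, had values of −0.34 and −0.54 on male knockout arrays against 1.63 and 2.15 on male wild-type arrays, and 0.43 and −0.12 on female knockout arrays against 1.53 and 1.1 on female wild-type arrays. Ppargc1b fell in males by 2.33 ± 0.27 on the log2 scale, 5.04-fold lower (SE, n = 2 each, limma adjusted p = 0.00591), a call kept in all 8 fits that left out 1 array. In females its difference was −1.16 ± 0.27 (limma adjusted p = 0.0655), and knockout and wild-type arrays did not overlap in either sex. Prkaa2, a catalytic subunit of AMP-activated kinase, fell in males by 0.66 (limma adjusted p = 0.0353) and in females by 0.68 (limma adjusted p = 0.0447) on the log2 scale, while Prkaa1, the other catalytic subunit, rose in males by 0.46 (limma adjusted p = 0.0475). Rxra and Pparg, nuclear receptors, fell in females by 0.60 (limma adjusted p = 0.0294) and 1.22 (limma adjusted p = 0.0442). Each of the calls on Mterf3, Mtif3, Prkaa1, Prkaa2, Rxra and Pparg was lost in at least 6 of the 8 fits that left out 1 array. The Rxra call was also lost when the probes of a gene were averaged.

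Of 26 genes of the citric acid cycle and the pyruvate dehydrogenase complex, 2 rose and 3 fell in males (median −0.25) and 1 rose and 3 fell in females (median −0.14). Of these 26, 23 were below 0 in males and 20 in females. Idh2, the mitochondrial NADP-dependent isocitrate dehydrogenase, rose 2.34-fold in males (limma adjusted p = 0.00717), with values of 6.83 and 6.68 on knockout arrays against 5.55 and 5.51 on wild-type arrays. In females Idh2 rose 1.91-fold (limma adjusted p = 0.0251), with 6.93 and 6.95 on knockout arrays against 6.21 and 5.81 on wild-type arrays. Pdhb, a subunit of pyruvate dehydrogenase, fell in males by 0.74 (limma adjusted p = 0.0107) and in females by 0.70 (limma adjusted p = 0.0188) on the log2 scale, without overlap in either sex. Pdp2 and Pdp1 encode the phosphatases that activate pyruvate dehydrogenase: in males Pdp2 fell by 0.74 (limma adjusted p = 0.0175), whereas Pdp1 rose by 2.10 (limma adjusted p = 0.0292). The third gene that fell in males was Pdhx, by 0.44 (limma adjusted p = 0.0363), and the dependence of that call on single arrays is not given here. In females Dlat, the acetyltransferase of the same complex, fell by 0.76 (limma adjusted p = 0.0357) and Idh3a, a subunit of the NAD-dependent isocitrate dehydrogenase, by 0.84 (limma adjusted p = 0.0481). The male Idh2 call was lost without male knockout array 1, and the calls on Pdhb, Pdp1, Pdp2, Dlat and Idh3a, with the female Idh2 call, were each lost in at least 3 of the 8 fits that left out 1 array. The Pdp2 call was also lost when the probes of a gene were averaged. In the sex comparisons limma called 1 gene of these lists, Pdhx, a structural subunit of the complex, which was 0.68 higher on the log2 scale in wild-type males than in wild-type females, a call lost without any 1 of the 8 arrays.

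Of 23 other inner-membrane genes, 2 rose and 1 fell in males and 2 rose and 0 fell in females. Of these 23, 16 were below 0 in males and 16 in females, with a median of −0.10 in each sex. Ucp2 and Ucp3, uncoupling proteins, had the largest differences of these genes. Ucp2 had values of 1.60 and 1.39 on male knockout arrays against −1.38 and −1.38 on male wild-type arrays, and 0.71 and 1.68 on female knockout arrays against −1.05 and −0.73 on female wild-type arrays. It rose 7.32-fold in males (limma adjusted p = 0.00466) and 4.25-fold in females (limma adjusted p = 0.0198). Ucp3 rose 7.53-fold in males (limma adjusted p = 0.00762) and 3.96-fold in females (limma adjusted p = 0.0357). The genes are neighbours on chromosome 7 with 0 protein-coding genes between them, their deviations from their own means differed by at most 0.141 on any of the 8 arrays, and whether the probes read separate transcripts was not tested. Prodh, proline dehydrogenase, fell in males by 1.12 on the log2 scale (limma adjusted p = 0.0305). The Ucp2 call in males was kept in all 8 fits that left out 1 array and the Ucp3 call in 7, while the female calls were kept in 6 for Ucp2 and 2 for Ucp3 and the Prodh call in 2.

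**Figure D5:**
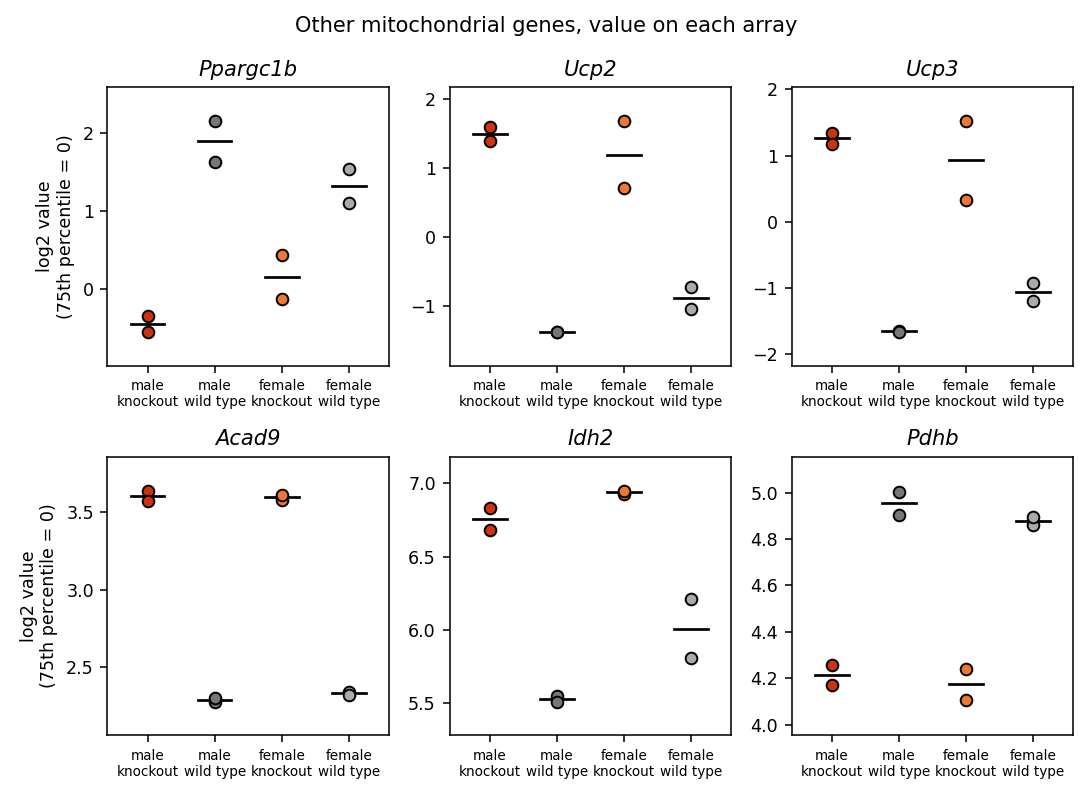
Log2 value on each array (y axis, 75th percentile of the array at 0) of 6 other mitochondrial genes, by group on the x axis; points are arrays and bars are group means of 2 arrays. Ppargc1b and Pdhb lie lower and Ucp2, Ucp3, Acad9 and Idh2 higher on arrays labelled knockout than on wild-type arrays within each sex.

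Markers of some cell types differed with genotype, while those of others did not pass the threshold or had overlapping sums. The shares of all rows that rose and fell were 6.09% and 4.52% in males, and 3.49% and 2.39% in females. The 15 hepatocyte markers, all well above background on all arrays, had summed linear levels of 7326 to 7496 on male knockout arrays against 6477 to 6590 on male wild-type arrays, and 6568 to 7217 on female knockout arrays against 6056 to 6095 on female wild-type arrays, in units of each array's 75th percentile. In each sex 2 of them (Asgr1 and F2) rose and 1 (Ttr) fell. Of 8 markers of B and plasma cells, 4 rose in males and 2 in females, with summed levels of 21.6 to 23.8 on male knockout arrays against 8.44 to 8.75 on male wild-type arrays, and 23.7 to 24.0 on female knockout arrays against 9.64 to 9.92 on female wild-type arrays. Of 10 endothelial markers 3 rose in males and 1 in females, with summed levels of 87.2 to 92.7 on male knockout arrays against 60.1 to 62.6 on male wild-type arrays, and 85.5 to 87.8 on female knockout arrays against 73.5 to 78.9 on female wild-type arrays. Of 10 stellate cell markers 4 rose in males, and in females 0 rose and 1 fell, with summed levels of 71.0 to 76.7 on male knockout arrays against 50.4 to 59.9 on male wild-type arrays, and 75.1 to 88.6 on female knockout arrays against 54.6 to 82.5 on female wild-type arrays. Of 10 muscle markers, 4 (Ckm, Mb, Myh1 and Actn3) were not well above background on any array, and the summed level was 0.778 to 1.22 on male knockout arrays against 0.638 to 0.726 on male wild-type arrays, and 0.862 to 0.919 on female knockout arrays against 0.645 to 0.683 on female wild-type arrays. Of the 4 muscle markers tested, 0 rose in males and 1, Tnni2, rose in females, and 0 fell in either sex. Of 12 macrophage and Kupffer cell markers, 9 T and NK cell markers and 4 neutrophil markers tested, 0 passed the threshold in either sex. The macrophage sums were 97.7 to 125 on male knockout arrays against 93.0 to 99.0 on male wild-type arrays, and 106 to 122 on female knockout arrays against 108.1 to 108.4 on female wild-type arrays. The T and NK cell sums were 18.3 to 25.2 on male knockout arrays against 24.3 to 26.9 on male wild-type arrays, and 13.5 to 15.0 on female knockout arrays against 13.9 to 23.6 on female wild-type arrays, with Ncr1 not well above background on any array. The neutrophil sums were 135 to 142 on male knockout arrays against 132 to 137 on male wild-type arrays, and 135 to 146 on female knockout arrays against 143 to 154 on female wild-type arrays, with Cxcr2 not well above background on any array. Apart from Prom1, no cholangiocyte marker of the 7 passed the threshold in either sex. Prom1 lay higher on knockout arrays, but was well above background on 0 male wild-type arrays and 1 female wild-type array. It entered the fit through the knockout arrays alone, and no test of it is given. The cholangiocyte sums were 4.64 to 5.20 on male knockout arrays against 3.57 to 4.12 on male wild-type arrays. In females the cholangiocyte sums were 4.99 to 5.73 on knockout arrays against 4.92 to 6.41 on wild-type arrays. Of 9 adipocyte markers 4 passed the filter, and Ucp1 and Adipoq were not well above background on any array. In each sex Elovl3 lay lower and Cox8b higher on knockout arrays. Elovl3 was well above background on 1 knockout array per sex and entered the fit through the wild-type arrays, so no test of it is given. The adipocyte sums were 4.68 to 6.17 on male knockout arrays against 51.1 to 67.5 on male wild-type arrays, and 5.41 to 8.69 on female knockout arrays against 3.81 to 4.08 on female wild-type arrays. Elovl3, a fatty acid elongase that liver also expresses, had log2 values of −4.88 and −3.86 on male knockout arrays against 6.01 and 5.57 on male wild-type arrays. The part of these markers in the subunit differences was not tested.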

How the data were processed

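Per the file headers, each array was scanned and quantified with Agilent Feature Extraction 11.5.1.1, whereas version 9.1.3.1 is the one in the submitters' processing notes. The deposited processed signal of each spot is an intensity that this software computed, and the headers name no background step. In the deposited value table, log2 values equal the log2 of this signal minus 1 constant per array, within 0.01 for every probe compared, with column medians of −3.14 to −3.26. From the deposited signals, outlier spots (55 to 139 per array) and control spots were removed, log2 was taken, the 75th percentile of each array was subtracted and spots of a probe were averaged. Probes had to be well above background on each array of 1 or more groups, and the brightest kept probe stood for its gene. Probes were named through RefSeq (GRCm38.p6), so gene names follow that release.

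Group means were fitted over the 8 arrays with limma 3.58.1 in R 4.3.3 (4 residual degrees of freedom), and 5 contrasts were tested over 26553 rows. The procedure was also run on simulated data, with independent rows and larger changes than most of those seen here. That run does not measure power for these subunits. The number of arrays limits the precision. Alternatives were quantile normalization, median centring, normexp with an offset of 50, other filters, averages over the probes of a gene, the compared groups alone, a replicate block, the deposited value table and each array left out. Normexp had been planned on mean spot signals; it was run on the median spot and background signals that the files used here hold, a change made after seeing the data. The subunits and gene lists were chosen with earlier results of these data known. Named subunits are those past the threshold, the largest rise and fall per complex and sex, the isoform groups and complex II, and of each other list up to 4 genes past the threshold.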

Additional observations from a re-analysis of the deposited data

How the results depend on the processing

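The count of 4 subunits past the threshold in males was 11 after normexp correction, 0 with no filter on dim probes, 0 with the male arrays fitted alone and 1 with a replicate block, which kept Cox7a1. It ranged from 0 to 5 with each array left out. In females the count of 0 became 1 after quantile normalization, 7 after normexp correction and 1 with only probes well above background on all arrays, and stayed 0 with a replicate block. Same-numbered arrays of different groups correlated at −0.00 to 0.10 in their deviations from group means, so the numbers do not pair the arrays. With arrays left out in turn, the female median ranged from −0.23 to 0.035, the male minus female median in wild type from −0.046 to 0.18 and the median difference between the sexes from −0.22 to 0.043. The male median kept its sign throughout. Calls in males over all rows numbered 3403 after normexp and 2139 with the male arrays alone. Over all rows, the 2816 calls in males became 1226 with no filter and 812 to 3110 with arrays left out. The 1562 in females became 2664 after normexp, 524 with no filter, 363 with the female arrays alone and 414 to 1615 with arrays left out. The 242 calls of male minus female in wild type became 589 after normexp, 91 with no filter, 43 with those groups alone and 97 to 488 with arrays left out. The 52 calls of the difference between the sexes became 16 with no filter, 32 with only probes well above background on all arrays, 24 with a replicate block and 0 to 121 with arrays left out. The 21 of male minus female among knockout arrays became 9 after normexp, 1 with only probes well above background on all arrays, 11 with those groups alone and 9 to 20 with arrays left out. No named gene changed direction past the threshold, and the causes of these changes were not tested.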
